A study of Mus musculus with 18 samples.

Results

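The mouse genes with the symbol Slc25a and a number, the family of mitochondrial solute carriers, were described in embryonic stem cells (ESCs) and in the epiblast-like cells (EpiLCs) derived from them. Every row of the count tables of ESCs and EpiLCs with such a symbol was taken, after the Ensembl identifiers had been matched to symbols in the GENCODE M21 annotation. This gave 42 carriers among the 14411 genes found in either table. Of these, 41 were among the 13104 genes listed for ESCs and 39 among the 13717 listed for EpiLCs, and 38 carriers were among the 12410 genes of both tables. Slc25a34, Slc25a45 and Slc25a48 were listed for ESCs only, and Slc25a47 for EpiLCs only. The annotation holds 47 such symbols, and 5 of them (Slc25a2, Slc25a18, Slc25a21, Slc25a41 and Slc25a54) were in neither table. The authors had removed genes with low counts before deposit, and all 41 and 39 carriers passed the further minimum of more than 10 counts in total and were tested.

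The RNA-seq libraries came from BVSC mouse ESCs, which carry a Venus reporter of Blimp1 and a cyan reporter of Stella, and from EpiLCs made from them with activin A and bFGF. In each cell type, 3 libraries were of cells exposed to Δ9-THC, the main psychoactive cannabinoid, at 100 nM, and 3 of cells given its ethanol vehicle. The exposed EpiLCs had also been exposed as ESCs, so their values follow exposure across both stages. A female and a male clone of the line were in use; the study describes its ESC data as coming from female cells, and the labels do not name the clone of each library. Adjusted counts totalled between 23427551 and 32096698 per library over the 12 libraries. Levels are given as CPM, a gene's counts scaled to a common library size with TMM factors. In bulk RNA, fewer cells of a type and less RNA per cell cannot be told apart. Since batch variation was taken out before deposit, the SDs over 3 replicates do not show it.

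Members of this family are carrier proteins, nearly all of the inner mitochondrial membrane, which is otherwise closed to most metabolites. They exchange ADP for ATP, bring in phosphate, link the citric acid cycle and the malate-aspartate shuttle to the cytosol, and carry amino acids, acylcarnitines, nucleotides and cofactors. Naive ESCs use both respiration and glycolysis, and cells that leave the naive state are known to lean more on glycolysis.

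The labelled cell types were checked against marker genes. The 9 naive markers together reached 4330 to 4750 CPM in the ESC libraries and 315 to 370 CPM in the EpiLC libraries. Those of the formative epiblast reached 152 to 174 CPM in ESCs, where Fgf5 was not in the table, and 1730 to 2110 CPM in EpiLCs, with Dnmt3b the most abundant. Of the pluripotency markers listed as shared by both states, Pou5f1 had 374 CPM in vehicle ESCs and 368 CPM in vehicle EpiLCs. Sox2 was not level, with 379 CPM in vehicle ESCs and 92.5 CPM in vehicle EpiLCs. Markers of other cells were low. Gata6, Sox17, Sox7 and Foxa2, which mark primitive endoderm, were in neither table, and the rest of that list summed to at most 9.92 CPM in any library. The mesoderm list, led by Eomes, summed to at most 18.0 CPM and the neural list, led by Sox1, to at most 20.9 CPM. Germ cell markers, led by Dazl in ESCs and Ddx4 in EpiLCs, summed to 71.2 to 83.2 CPM in vehicle ESCs, 80.3 to 94.0 in exposed ESCs, 49.5 to 61.2 in vehicle EpiLCs and 56.5 to 70.5 in exposed EpiLCs, ranges that overlap between exposures in each cell type. The 2-cell-like list, led by Zscan4c or Zscan4d, summed to at most 7.17 CPM. Between exposures in ESCs, edgeR called 1 of 26 markers tested, where 6.91% of all genes were called. This was Pou3f1 of the formative epiblast, with 3.84 CPM in vehicle and 1.95 CPM in exposed ESCs (log2 fold change -0.96, SE 0.10, edgeR adjusted p = 0.0265). It was also called with RLE factors, without a filter, with at least 10 counts in every library and in a fit of all 12 libraries (edgeR adjusted p = 0.0247 to 0.0294). It was not called with the replicate number as a block, or with offsets for the GC content and length of genes. Nor was it called with both or without any single library, and edgeR adjusted p in these fits was 0.0721 to 0.926. Its log2 fold change was -0.962 with the block, -0.741 with the offsets and with both, and -1.04 to -0.923 without a library. DESeq2 gave Pou3f1 no adjusted p but called 2 other markers, Klf2 and Dazl, where it called 5.79% of all genes. Uncalled by edgeR but with separate libraries, the naive markers Esrrb and Klf2 were lower and Tfcp2l1, Otx2, Dazl, Nanos3 and Zscan4c higher in exposed ESCs. Nanog, Tbx3, Prdm14, Ddx4 and Dab2 were higher and Pou5f1 lower in exposed EpiLCs. With Pou3f1, libraries were separate for 8 of 26 markers in ESCs, against 33.0% of all genes. In EpiLCs they were separate for 6 of 28 markers, against 21.8% of all genes. The part of cell state or of other cells in the values of the carriers was not tested.

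A few carriers held most of the family's RNA. Per kilobase of exon, Slc25a5, the ADP/ATP carrier of dividing cells, stood highest in both cell types, at 643 CPM per kb in vehicle ESCs and 658 CPM per kb in vehicle EpiLCs. In vehicle ESCs it was followed by Slc25a4, the ADP/ATP carrier of heart and muscle, at 105 CPM per kb and by Slc25a39, a glutathione carrier, at 104 CPM per kb. The libraries of these carriers overlapped, and both stood above Slc25a3, the phosphate carrier, at 94.6 and Slc25a1, the citrate carrier, at 91.2 CPM per kb, which overlapped with each other. Slc25a13 (citrin), an aspartate-glutamate carrier, was sixth with 51.3 CPM per kb. In vehicle EpiLCs the order after Slc25a5 was Slc25a3 at 116, Slc25a4 at 96.4, Slc25a1 at 76.3, Slc25a39 at 57.2 and Slc25a11, the oxoglutarate carrier, at 31.6 CPM per kb, and no neighbours in that order overlapped between libraries. Lengths are those of all annotated exons joined, so a gene with long, rarely used exons reads low on this scale. Slc25a5 also has processed pseudogene copies, and only reads with a single place in the genome were kept, so its level is uncertain.

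Summed over the 38 shared carriers, the family reached 3481 ± 77.3 CPM (SD, n = 3) in vehicle ESCs and 3456 ± 74.7 CPM in exposed ESCs. The sums in EpiLCs were 3139 ± 198 CPM with the vehicle and 2901 ± 169 CPM with Δ9-THC. Ranges of vehicle and exposed libraries overlapped in both cell types, at 3406 to 3560 against 3382 to 3531 CPM in ESCs and 2962 to 3352 against 2713 to 3039 CPM in EpiLCs. Among sums by substrate class, that of cofactor and acyl carriers was separate in ESCs (519.9 to 534.8 CPM with the vehicle, 482.2 to 494.6 exposed). That of phosphate and carboxylate carriers was separate in EpiLCs (850.5 to 925.5 CPM with the vehicle, 765.8 to 836.5 exposed). Other classes overlapped between exposures, apart from the outer membrane protein Slc25a46 by itself in ESCs. Slc25a5 alone gave 30.4% ± 0.812 (SD, n = 3) of the family's summed CPM in vehicle ESCs and 34.4% ± 2.90 in vehicle EpiLCs. At the other end, Slc25a47 had 18, 19 and 7 counts in the vehicle EpiLCs, where counting error is large.

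**Figure D1:**
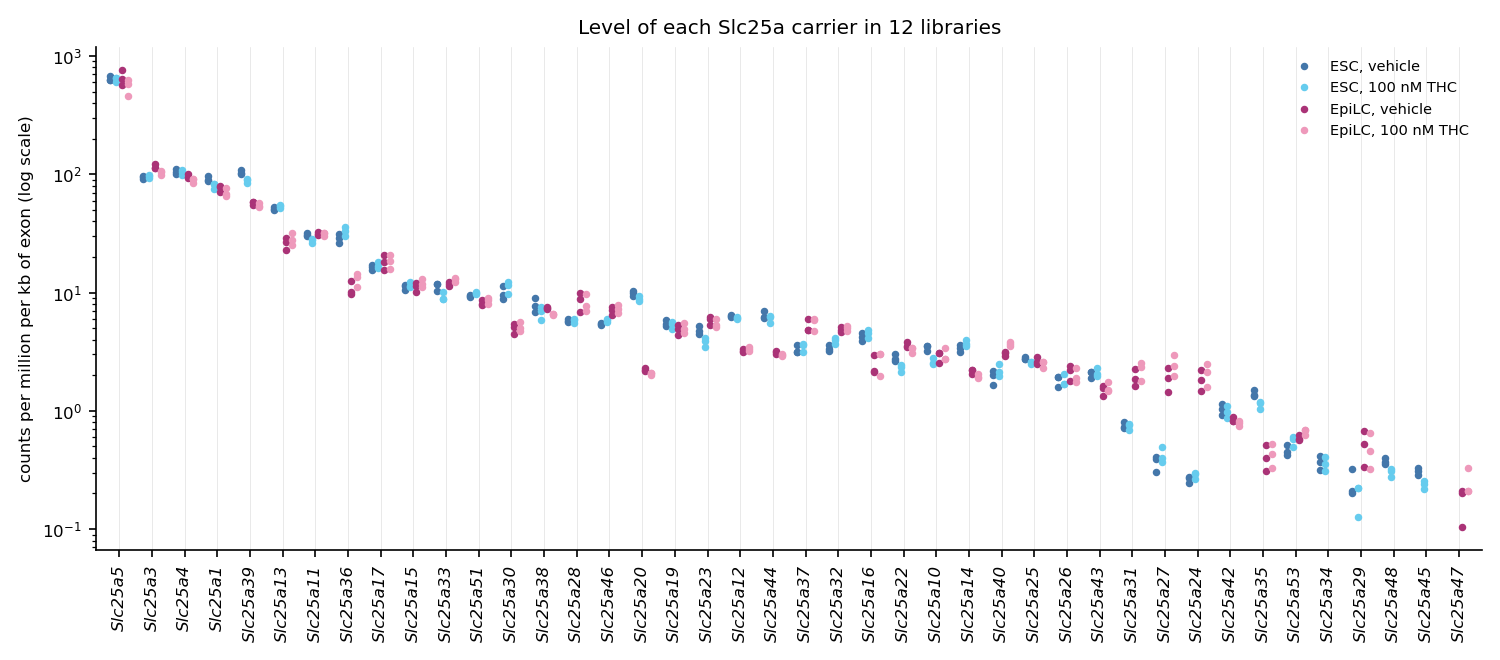
Level of the 42 Slc25a carriers in CPM per kilobase of exon (log axis). Each point is a library, 3 per group, and carriers are ordered by their mean over the groups. Slc25a5 stands above every other carrier in all 12 libraries, and Slc25a20, Slc25a24 and Slc25a27 show the widest gaps between ESCs and EpiLCs.

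Carriers were then compared between vehicle ESCs and vehicle EpiLCs. Batch adjustment had been done apart for each table, which makes these differences a description with no test. Of the 38 shared carriers, 4 were more than 2-fold higher and 4 more than 2-fold lower in EpiLCs with no overlap between libraries, where 11.1% and 10.6% of all shared genes were. The libraries of the cell types were separate for 28 of the 38, against 75.4% of all shared genes. With library totals in place of TMM factors, and also without replicate 2 of the vehicle EpiLCs, 4 carriers were higher and 7 lower, since Slc25a12, Slc25a13 and Slc25a30 passed 2-fold as well. Of all shared genes 10.5% were then higher and 11.1% lower with library totals, and 11.8% and 11.0% without that library. Without replicate 1 of the vehicle ESCs 3 carriers were higher and 3 lower (11.2% and 10.5% of all shared genes). Without replicate 3 of the vehicle ESCs these were 3 and 5 (11.1% and 10.8%), and without replicate 3 of the vehicle EpiLCs 3 and 4 (10.7% and 10.5%). The median log2 ratio of the carriers was -0.03 and that of all shared genes -0.000336.

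Slc25a20, Slc25a35, Slc25a36 and Slc25a44 were the carriers furthest below their level in ESCs. Slc25a20, the carnitine-acylcarnitine carrier that brings fatty acids to β-oxidation, had 44.9, 49.5 and 47.9 CPM in the vehicle ESCs and 10.7, 11.1 and 10.6 CPM in the vehicle EpiLCs. It was 4.39-fold lower in EpiLCs, with separate libraries. Slc25a36, a pyrimidine nucleotide carrier, had 303, 277 and 249.8 CPM in ESCs and 121, 92.9 and 97.1 CPM in EpiLCs, 2.67-fold lower. Its paralogue Slc25a33 overlapped between the cell types, at 21.3 ± 1.70 CPM (SD, n = 3) and 22.3 ± 1.04 CPM. Slc25a35, whose substrate is not settled, was 3.43-fold lower in EpiLCs (5.17 ± 0.302 against 1.51 ± 0.379 CPM), but 31.3% of its exon bases also lie in Rangrf, and counting without strand cannot assign such reads. Slc25a44, a carrier of branched-chain amino acids, was 2.06-fold lower, from 24.9, 21.7 and 22.4 CPM to 11.4, 11.3 and 10.8 CPM. Just short of 2-fold were Slc25a30, an uncoupling-protein-like carrier (1.98-fold lower), and both aspartate-glutamate carriers of the malate-aspartate shuttle, Slc25a12 (1.97-fold lower) and Slc25a13 (1.96-fold lower), each with separate libraries.

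Slc25a24, Slc25a27, Slc25a31 and Slc25a29 were the carriers furthest above their level in ESCs, where each was low. Slc25a24, a calcium-regulated ATP-Mg/phosphate carrier, had 0.948, 0.841 and 0.920 CPM in vehicle ESCs and 6.27, 7.65 and 5.04 CPM in vehicle EpiLCs, a 7.0-fold difference with every EpiLC library above every ESC library. Slc25a27, an uncoupling-protein-like carrier best known from the brain, had 1.59, 1.54 and 1.20 CPM in ESCs and 9.04, 5.70 and 7.46 CPM in EpiLCs, 5.13-fold higher. Slc25a31, the ADP/ATP carrier of male germ cells, had 1.71, 1.53 and 1.56 CPM in ESCs and 3.95, 4.85 and 3.44 CPM in EpiLCs, 2.55-fold higher and likewise separate. It remained far below the other ADP/ATP carriers per kilobase, at 1.92 CPM per kb in vehicle EpiLCs. Slc25a29, a carrier of basic amino acids, was 2.07-fold higher at 0.641 ± 0.173 against 1.33 ± 0.451 CPM, the least abundant of these. Its groups were barely separate and rested on 18, 23 and 15 counts in ESCs against 25, 43 and 40 in EpiLCs. Next were Slc25a37 (mitoferrin, an iron carrier; 1.57-fold higher) and Slc25a40, a glutathione carrier (1.57-fold higher).

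By substrate class, the summed CPM of the 7 shared amino acid carriers was 366 ± 13.2 (SD, n = 3) in vehicle ESCs and 241 ± 19.4 in vehicle EpiLCs. The 10 shared carriers of cofactors and acyl groups had 525 ± 8.22 and 366 ± 4.43 CPM and the 2 pyrimidine nucleotide carriers 298 ± 25.1 and 126 ± 15.9 CPM, and these 3 sums were lower in EpiLCs with separate libraries. The sum of the 3 uncoupling-protein-like carriers was lower as well, at 54.8 ± 6.20 and 35.3 ± 2.04 CPM with separate libraries, although Slc25a27 was higher. Members of a class did not all go the same way. Slc25a13 and Slc25a12 differed most in the amino acid sum, where Slc25a22 was 1.29-fold higher. In the cofactor sum Slc25a39 went from 286 to 158 CPM, while Slc25a32 was 1.44-fold and Slc25a40 1.57-fold higher. Of the pyrimidine carriers, Slc25a36 was lower and Slc25a33 overlapped. The sum of the 2 iron carriers was higher in EpiLCs, at 63.2 ± 9.32 against 41.5 ± 2.30 CPM, with Slc25a28 and Slc25a37 both higher. The sum of the 4 carriers of phosphate and carboxylates was also higher, at 887 ± 37.5 against 799 ± 26.4 CPM, with Slc25a3 at 645 against 525 CPM, whereas Slc25a1 (165 against 197 CPM) and Slc25a10 (1.18-fold) were lower with separate libraries and Slc25a11 overlapped. The 6 adenine nucleotide carriers overlapped, at 1354 ± 57.9 and 1373 ± 156 CPM. Among the exposed libraries 4 carriers were more than 2-fold higher and 5 more than 2-fold lower in EpiLCs, by the same rule, against 11.5% and 9.32% of all shared genes. There the amino acid, cofactor, pyrimidine and uncoupling-protein-like sums were again lower in EpiLCs and the iron sum higher, with separate libraries. The phosphate and carboxylate sum overlapped, at 747.7 to 796.6 CPM in exposed ESCs and 765.8 to 836.5 CPM in exposed EpiLCs. Slc25a3 overlapped too, and Slc25a33 was 1.39-fold higher in exposed EpiLCs with separate libraries.

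**Figure D2:**
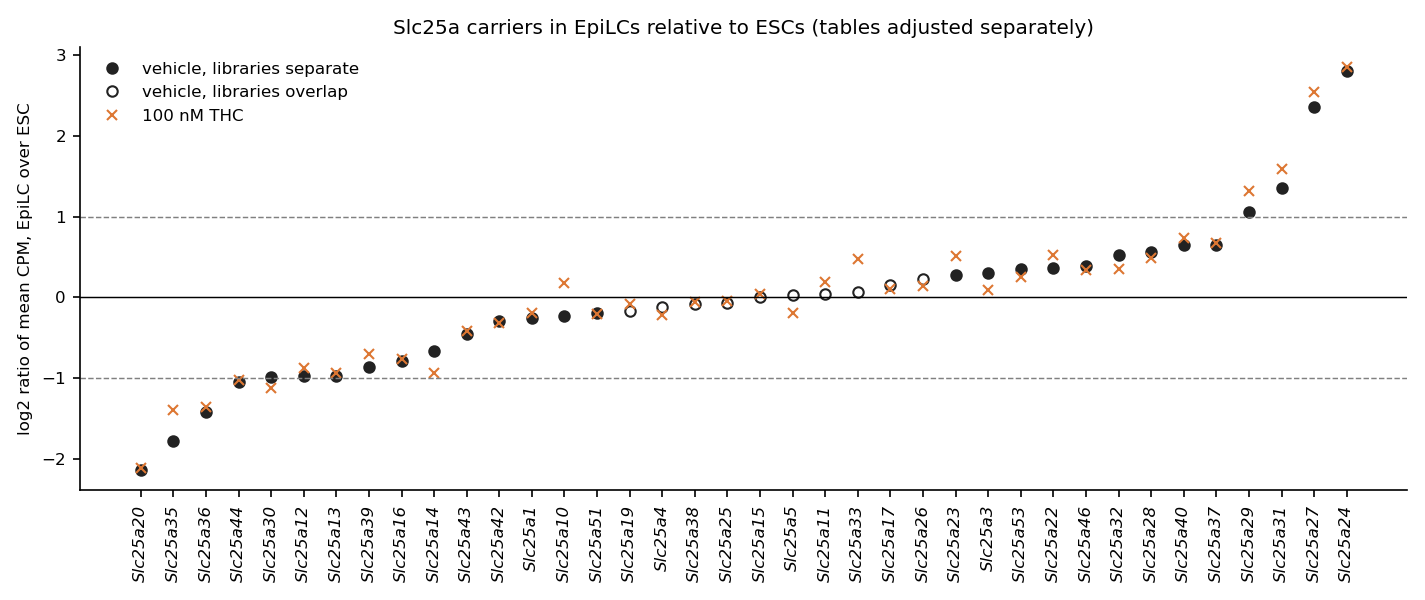
Log2 ratio of mean CPM in EpiLCs over ESCs for the 38 shared carriers, with vehicle as circles (filled where the 3 and 3 libraries do not overlap, open where they do) and 100 nM Δ9-THC as crosses. Dashed lines mark 2-fold. Slc25a20 is lowest at -2.14 and Slc25a24 highest at 2.81 in the vehicle libraries.

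Sequence upstream of the gene start is shown for Slc25a20 and Slc25a36, which were lower in EpiLCs, and for Slc25a24 and Slc25a31, which were higher, all with a promoter entry in RefSeq (GRCm38.p6). RefSeq promoters were matched for 33 of the 42 carriers, with 42 starts. Windows of 250 bases before the start were searched on both strands for the E-box CACGTG, for CCGGAAGT, bound by ETS factors, and for the NRF1 core CGCATGCG. Printed windows end where the GENCODE gene begins, run 5′ to 3′ on the gene's strand, and carry in capitals the motifs that were found. Slc25a20 lies at chr9:108661886-108662087 (plus strand), Slc25a36 at chr9:97111158-97111291 (minus strand), Slc25a24 at chr3:109122899-109123148 (plus strand) and Slc25a31 at chr3:40708621-40708854 (plus strand).
Slc25a20: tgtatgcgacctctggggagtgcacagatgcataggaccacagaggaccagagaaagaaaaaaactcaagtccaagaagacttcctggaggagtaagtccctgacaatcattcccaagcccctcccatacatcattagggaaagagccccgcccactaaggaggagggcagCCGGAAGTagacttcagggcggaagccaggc
Slc25a36: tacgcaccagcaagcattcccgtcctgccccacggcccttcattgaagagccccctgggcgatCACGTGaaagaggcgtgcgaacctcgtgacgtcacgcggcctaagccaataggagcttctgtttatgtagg
Slc25a24: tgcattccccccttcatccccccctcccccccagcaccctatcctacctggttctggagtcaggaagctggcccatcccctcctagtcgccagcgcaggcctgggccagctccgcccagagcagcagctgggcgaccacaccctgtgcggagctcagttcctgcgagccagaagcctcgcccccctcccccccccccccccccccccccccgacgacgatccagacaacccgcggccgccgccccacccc
Slc25a31: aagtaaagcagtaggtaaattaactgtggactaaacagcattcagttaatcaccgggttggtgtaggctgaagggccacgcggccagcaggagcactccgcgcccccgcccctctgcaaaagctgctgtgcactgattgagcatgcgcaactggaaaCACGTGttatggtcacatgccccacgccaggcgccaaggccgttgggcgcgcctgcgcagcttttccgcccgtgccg
The E-box was in 8 of the 42 carrier promoters (19%), belonging to 7 carriers (Slc25a1, Slc25a13, Slc25a14, Slc25a15, Slc25a31, Slc25a33 and Slc25a36), and in 6.02% of all 32851 RefSeq promoters. It was found both in Slc25a36, which was lower in EpiLCs, and in Slc25a31, which was higher. The ETS letters were in 1 carrier promoter, that of Slc25a20, and in 2.88% of all promoters. The NRF1 core was in 0 carrier promoters and in 1.55% of all. GC content was 54% in the Slc25a20 window with 4 CpG, 59% with 11 CpG for Slc25a36, 72.8% with 14 CpG for Slc25a24 and 59.4% with 17 CpG for Slc25a31. Such matches describe letters, not binding.

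The effect of Δ9-THC was tested within each cell type by edgeR's quasi-likelihood test on the 3 exposed and 3 vehicle libraries, with Benjamini-Hochberg adjustment over all genes and a threshold of 0.05. In ESCs, 2 of the 41 carriers were called, both lower with Δ9-THC, where 6.91% of all genes tested were called and 3.55% were called lower. The log2 fold change was positive for 21 carriers and negative for 20, with a median of 0.000811 against 0.00406 over all genes.

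Slc25a39, which brings glutathione into mitochondria, had 282, 278 and 298 CPM in the vehicle ESCs and 248, 251 and 234 CPM in the exposed ESCs. Every exposed library lay below every vehicle library. The log2 fold change came to -0.21 (SE 0.04, edgeR adjusted p = 0.0364). Slc25a10, the dicarboxylate carrier that exchanges malate and succinate for phosphate, had 11.0, 12.3 and 12.1 CPM with the vehicle and 9.74, 8.61 and 8.78 CPM with Δ9-THC. These groups were separate as well, with a log2 fold change of -0.37 (SE 0.07, edgeR, adjusted p = 0.0408). The GC content of their transcripts was 59.7% and 60.6%, among the highest of the family. With offsets for GC content and length the log2 fold changes were -0.071 for Slc25a39 and -0.21 for Slc25a10, and with the replicate number as a block they were -0.211 and -0.369. Neither was called in those fits, in a fit of all 12 libraries, or without any single library. DESeq2 called both and also Slc25a1 and Slc25a23, all lower, 4 of 41 carriers against 5.79% of all genes.

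At an unadjusted p under 0.05, 6 carriers were higher and 9 lower in exposed ESCs, 15 of 41 where 28.7% of all genes passed, 14.9% higher and 13.8% lower. This count was 8 with the replicate block (11.1% of all genes), 6 with GC and length offsets (18.6%), 1 with both (5.04%), and 9 without replicate 2 or 3 of either group (20.9% to 22.2%). The 3 and 3 libraries did not overlap for 14 carriers, 3 higher and 11 lower with Δ9-THC, against 33.0% of all genes without overlap, 14.2% higher and 18.8% lower. The 3 higher were Slc25a32, a folate and FAD carrier, Slc25a46, a protein of the outer membrane that acts in mitochondrial shape, and Slc25a51, the NAD carrier. Slc25a32 had 21.7, 19.6 and 20.2 CPM with the vehicle and 22.5, 24.9 and 24.1 CPM with Δ9-THC, which came to 0.24 on the log2 scale (SE 0.06, edgeR adjusted p = 0.0602). Slc25a46 had a log2 fold change of 0.12 (SE 0.04, edgeR adjusted p = 0.0873) and Slc25a51 one of 0.09 (SE 0.03, edgeR adjusted p = 0.119), and with the GC and length offsets Slc25a46 was at -0.00181 and Slc25a32 at 0.121. Besides Slc25a10, the largest decreases among separate groups were in Slc25a45, Slc25a23 and Slc25a35. Slc25a45 rested on 26, 25 and 24 counts against 17, 18 and 16 (log2 fold change -0.36, SE 0.23, edgeR adjusted p = 0.342). Slc25a23, a calcium-regulated ATP-Mg/phosphate carrier, had 23.6, 25.1 and 27.6 against 21.8, 20.5 and 18.4 CPM (log2 fold change -0.31, SE 0.08, edgeR adjusted p = 0.0644). Slc25a35 had a log2 fold change of -0.31 (SE 0.08, edgeR adjusted p = 0.0731).

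Among the ADP/ATP carriers in ESCs, Slc25a5 stood at 1058 ± 44.9 CPM (SD, n = 3) with the vehicle and 1050 ± 45.3 CPM with Δ9-THC, Slc25a4 at 246 ± 11.9 and 244 ± 11.9 CPM, and Slc25a31 at 1.60 ± 0.097 and 1.58 ± 0.108 CPM, and for all 3 the groups overlapped. With the GC and length offsets their log2 fold changes were -0.034, 0.0244 and -0.144, where without them they were 0.00439, 0.000811 and -0.00421. Slc25a3 had a log2 fold change of 0.05 (SE 0.03), Slc25a12 of -0.04 (SE 0.04) and Slc25a13 of 0.08 (SE 0.03), none of them called by edgeR, and with the GC and length offsets these were -0.0331, -0.0695 and 0.0381. The citrate carrier Slc25a1 had 191, 193 and 208 CPM with the vehicle and 180, 178 and 164 CPM with Δ9-THC, which are separate groups (log2 fold change -0.17, SE 0.05, edgeR adjusted p = 0.0803). With the offsets its value was -0.0443.

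**Figure D3:**
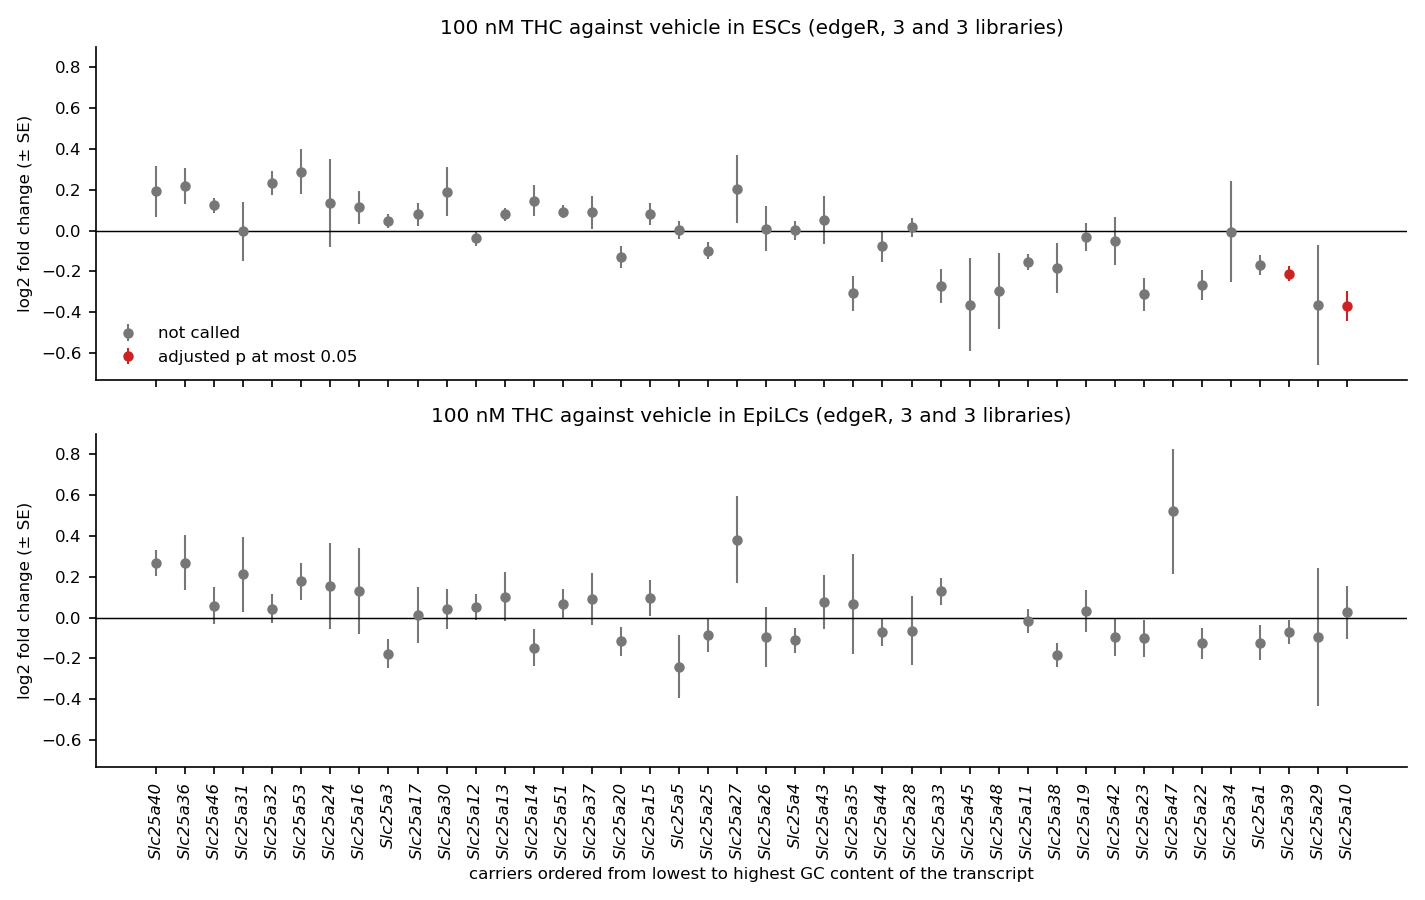
Log2 fold change (± SE) of each carrier with 100 nM Δ9-THC against vehicle in ESCs (top) and EpiLCs (bottom), ordered by GC content from low on the left to high on the right. Red marks the 2 carriers called by edgeR, Slc25a39 and Slc25a10, both in ESCs and both at the GC-rich end.

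Across carriers, the difference with Δ9-THC in ESCs moved with GC content, as it did across all genes. Of 20 carriers with a GC content of at least 50%, 16 were lower with Δ9-THC (median log2 fold change -0.18), and of 21 with less, 17 were higher (median 0.09). Over all genes these were 4489 of 6298 and 4879 of 6785. Spearman's rho between GC content and log2 fold change was -0.806 over the 41 carriers and -0.536 over the 13083 genes with a GC content. In EpiLCs it was -0.438 over 39 carriers and -0.299 over 13696 genes. With the GC and length offsets, rho over the carriers was -0.436 in ESCs and -0.0796 in EpiLCs, and over all genes 0.00894 and 0.00203. These are descriptions across genes that share the same 6 libraries, and genes are not independent replicates. The part of GC content in the differences of single carriers was not tested beyond the offsets.

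**Figure D4:**
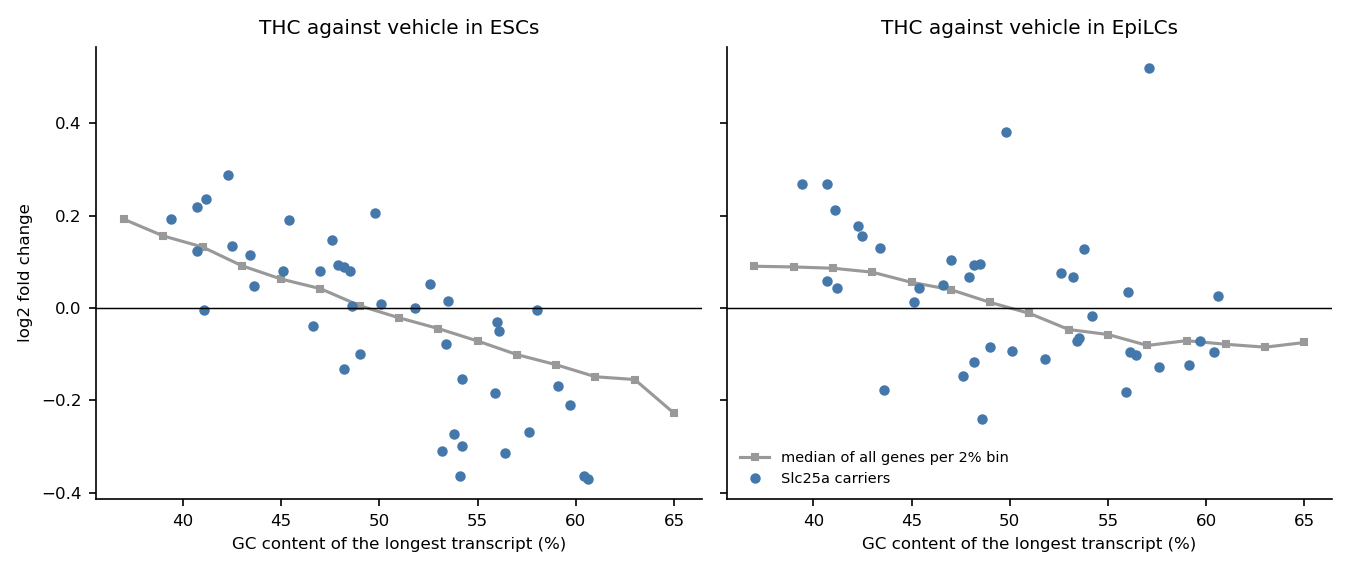
Log2 fold change with Δ9-THC against the GC content of the longest transcript for the carriers (blue points, 41 in ESCs on the left and 39 in EpiLCs on the right) and the median of all genes in bins of 2% GC (grey squares). In ESCs both slope downwards, and in EpiLCs the slope is shallower and the scatter of the carriers wider.

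In EpiLCs, edgeR called 0 of the 39 carriers, where 0% of all genes were called, and DESeq2 also called 0 carriers, against 0.634% of all genes. At an unadjusted p under 0.05 there were 3 carriers (Slc25a40 higher, Slc25a3 and Slc25a38 lower), against 15.1% of all genes, and 0 with the replicate block, against 2.12%. The log2 fold change was positive for 22 carriers and negative for 17, with a median of 0.03 against 0.00305 over all genes. The libraries did not overlap for 9 carriers, 3 higher and 6 lower with Δ9-THC, against 21.8% of all genes, 11.2% higher and 10.6% lower.

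The 3 higher were Slc25a47, Slc25a40 and Slc25a53. Slc25a40, the paralogue of Slc25a39, had 26.6, 25.6 and 24.3 CPM in the vehicle EpiLCs and 29.5, 30.8 and 31.7 CPM in the exposed EpiLCs, with a log2 fold change of 0.27 (SE 0.06, edgeR adjusted p = 0.179), the lowest adjusted p among the carriers here. Its difference in ESCs was 0.19 (SE 0.13), with overlapping libraries. Slc25a53, whose substrate is not settled, had a log2 fold change of 0.18 (SE 0.09, edgeR adjusted p = 0.419). With the GC and length offsets Slc25a40 was at 0.123 and Slc25a53 at 0.0485. Slc25a47, known from liver, had 0.624, 0.598 and 0.309 CPM against 0.627, 0.632 and 0.975 CPM, groups that were barely separate (log2 fold change 0.52, SE 0.31, edgeR adjusted p = 0.469). Its value was 0.256 without replicate 3 of the exposed and 0.309 without replicate 3 of the vehicle EpiLCs.

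Of the lower ones, the phosphate carrier Slc25a3 had 625, 678 and 632 CPM with the vehicle and 592, 542 and 577 CPM with Δ9-THC (log2 fold change -0.18, SE 0.07, edgeR adjusted p = 0.319). Slc25a38, which brings glycine to haem synthesis, had 20.8, 20.3 and 20.1 against 17.6, 18.2 and 18.1 CPM (log2 fold change -0.18, SE 0.06, edgeR adjusted p = 0.239). Both were separate without passing the adjusted threshold, and with the offsets Slc25a3 was at -0.261 and Slc25a38 at -0.1. Slc25a14, an uncoupling-protein-like carrier, had a log2 fold change of -0.15 (SE 0.09) and Slc25a22, a glutamate carrier, of -0.13 (SE 0.08).

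Slc25a5 varied most among the abundant carriers, at 1055, 1256 and 939 CPM with the vehicle and 953, 760 and 1036 CPM with Δ9-THC, and the groups overlapped (log2 fold change -0.24, SE 0.15). Slc25a4 had a log2 fold change of -0.11 (SE 0.06), Slc25a31 of 0.21 (SE 0.18), Slc25a1 of -0.12 (SE 0.08), Slc25a12 of 0.05 (SE 0.06), Slc25a13 of 0.10 (SE 0.12) and Slc25a51 of 0.07 (SE 0.07). None of these was called by edgeR, and with the GC and length offsets Slc25a12 was at -0.0433, Slc25a4 at -0.0621, Slc25a1 at -0.0286 and Slc25a51 at 0.0178. The carriers called in ESCs were at -0.07 (SE 0.06) for Slc25a39 and 0.03 (SE 0.13) for Slc25a10 in EpiLCs, and at 0.0144 and 0.0989 with the offsets.

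The difference between the cell types in the effect of Δ9-THC was tested as an interaction over the 12 libraries, on the shared genes. For 0 of 38 carriers was it past the threshold, by edgeR or by DESeq2, where edgeR called 0.0322% and DESeq2 1.07% of all shared genes. At an unadjusted p under 0.05 there were 4 carriers (Slc25a3, Slc25a10, Slc25a14 and Slc25a33), against 13.7% of all shared genes, and 1 with the replicate block, against 2.64%. Slc25a33, a pyrimidine nucleotide carrier, had 19.3, 22.3 and 22.2 CPM in vehicle ESCs and 19.2, 16.5 and 16.6 CPM in exposed ESCs, groups that were barely separate. In EpiLCs it had 23.4, 22.1 and 21.3 CPM with the vehicle and 23.2, 24.7 and 25.0 CPM with Δ9-THC, which overlapped. The difference of its effects was 0.42 on the log2 scale (SE 0.11, edgeR adjusted p = 0.143). Of its exon bases 14.9% lie in Gm13068 as well. That of Slc25a10 was 0.41 (SE 0.16, edgeR adjusted p = 0.277), of Slc25a14 -0.28 (SE 0.12, edgeR adjusted p = 0.355) and of Slc25a3 -0.21 (SE 0.08, edgeR adjusted p = 0.296). The effect on Slc25a39 was not shown to differ between the cell types (0.15, SE 0.08, edgeR adjusted p = 0.398).

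**Figure D5:**
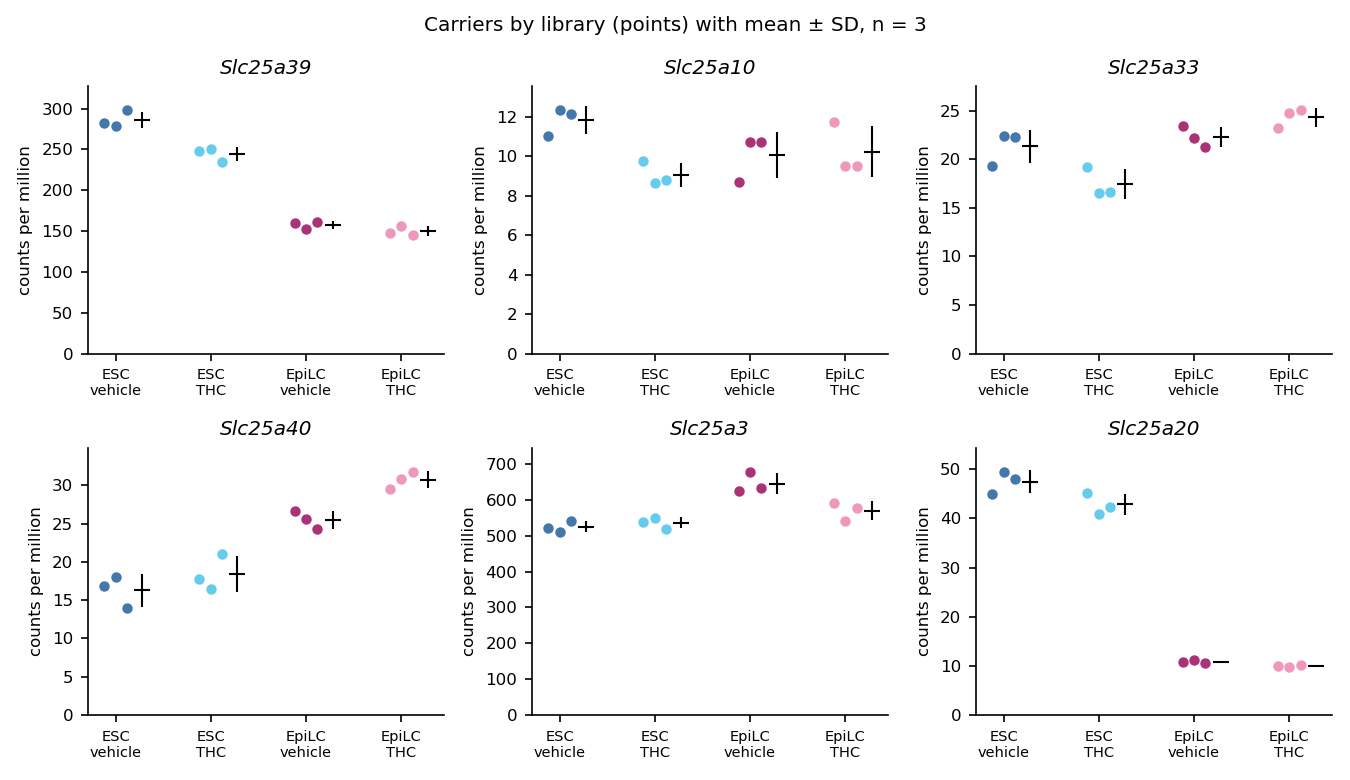
CPM of 6 carriers in each of the 12 libraries (coloured points, 3 per group) with the group mean ± SD (black). Slc25a39 and Slc25a10 were lower in all 3 exposed ESC libraries than in any vehicle ESC library, Slc25a40 was higher and Slc25a3 lower in all 3 exposed EpiLC libraries, and Slc25a20 differed mainly between the cell types.

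Other genes of mitochondrial transport were counted from lists of family members with other symbols, inner membrane transporters, outer membrane channels and the import machinery of carriers. Of 40 such genes, 37 were in both tables. In ESCs edgeR called 0 of the 37, with 11 at an unadjusted p under 0.05 (6 higher and 5 lower, against 28.7% of all genes), and DESeq2 called 1, Ucp2, which was lower, where it called 5.79% of all genes. Ucp2, a family member known as uncoupling protein, had 238, 238 and 255.5 CPM with the vehicle and 218, 218 and 202 CPM with Δ9-THC, separate groups (log2 fold change -0.18, SE 0.04, edgeR adjusted p = 0.0569). Also picked by the rule for these lists in ESCs were Sfxn4 (log2 fold change -0.33, SE 0.11) and Micu2, a subunit of the calcium uniporter (0.20, SE 0.07).

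In EpiLCs edgeR and DESeq2 each called 0 of the 37, with 2 at an unadjusted p under 0.05, both lower, against 15.1% of all genes. The genes picked there were Tomm40, the pore of the outer membrane translocase (log2 fold change -0.21, SE 0.08), Timm8a1, a chaperone of the intermembrane space (-0.19, SE 0.06), and Sfxn3, a sideroflexin (0.13, SE 0.13). Sfxn3 also stood apart between the cell types, at 25.0 CPM in vehicle ESCs and 2.57 CPM in vehicle EpiLCs. Of the 13 genes of carrier import, the log2 fold change was positive for 10 in ESCs (median 0.08) and negative for 10 in EpiLCs (median -0.05), and for the 3 Vdac channels it was positive for 3 in ESCs and negative for 3 in EpiLCs. Over all genes it was positive for 6697 of 13104 in ESCs and negative for 6764 of 13717 in EpiLCs. These signs were counted without the GC and length offsets, over genes that share the same 6 libraries and are not independent replicates. Of all genes with a GC content under 50%, 4879 of 6785 were higher in ESCs and 4384 of 7009 in EpiLCs. The part of GC content in these signs was not tested. None of the 37 transport genes was called by edgeR, in either cell type or for the interaction. For the interaction 5 of the 37 had an unadjusted p under 0.05, against 13.7% of all shared genes, and DESeq2 called 0.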

How the data were processed

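The authors aligned paired reads of poly(A) libraries, made with either of a pair of kits, with STAR, kept uniquely mapped reads, and counted them over exons with HTSeq without strand. The submitters' processing notes also name bcl2fastq 2.19.1.403. They then removed genes with low counts and adjusted the counts with ComBat-seq, for batches not named in the sources used here. The deposited tables, separate for ESCs and EpiLCs, hold these adjusted counts as whole numbers. The build is named as mm10 and as GRCm39, and positions printed here are those of GRCm38. PGCLC libraries were not analysed here.

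Cell type and exposure in the labels gave the groups. The labels call the replicates biological, and the study describes independent biological repeats behind its figures unless otherwise specified. How the cultures of these libraries were kept apart is not described. The p-values measure only the spread left between these libraries after batch adjustment, and they take the libraries as independent. Counts were fitted with edgeR 4.0.16 in R 4.3.3 (TMM, quasi-likelihood, Benjamini-Hochberg adjustment over all genes), within each table, on genes with more than 10 counts. Each SE is the one implied by the p-value of that test. The interaction used 4 groups and 12 libraries. GC content and length came from GENCODE M21. The fits were also run on simulated data, and no result of that is given or used here. Alternatives were RLE factors, a minimum of 10 counts per library, no filter, a replicate block, GC and length offsets (natural splines, 5 degrees of freedom), the block with the offsets, DESeq2 1.42.0, 12 libraries in 1 fit, and each library left out. For the comparison of cell types they were library totals, RLE factors, exposed libraries and a 1.5-fold threshold.

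Named carriers were those called, per cell type the 4 largest increases and decreases with separate libraries, the 6 highest and 6 lowest ratios of EpiLCs to ESCs, the 6 highest levels per kilobase, carriers of 1 table only, and a fixed set of well-known carriers (Slc25a1, Slc25a3, Slc25a4, Slc25a5, Slc25a12, Slc25a13, Slc25a31 and Slc25a51). The members and lists were chosen with earlier results of these data known. The result for 1 gene of the transport lists is not reported here.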

Additional observations from a re-analysis of the deposited data

How the results depend on the processing

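In ESCs, 2 carriers were called in the reported fit, with RLE factors, without a filter and with at least 10 counts in every library, where all genes called numbered 906, 878, 906 and 906. With the replicate block 0 were called (5 of all 13104 genes), with GC and length offsets 0 (2), with both together 0 (3), and in the fit of 12 libraries 0 (31 of 12410), so calls were lost across the table and not by the carriers alone. Leaving out a library gave 0 to 0 calls (0 to 1 of all genes), and DESeq2 gave 4 (759). The cause was not tested. The reported fits did not pair libraries by replicate number, yet same-numbered libraries were not independent. The counts were already batch-adjusted, so the sign of a correlation between libraries does not show whether they were paired. Deviations of same-numbered vehicle and exposed libraries from their group means correlated at -0.987 to -0.977 in ESCs and -0.985 to -0.979 in EpiLCs, while other pairs correlated at 0.223 to 0.695, and the p-values take libraries as independent. In EpiLCs and for the interaction, 0 carriers were called by every alternative run. Of all genes in EpiLCs, the fit of 12 libraries called 411 of 12410, DESeq2 called 87 of 13717, and the other runs called 0. For the interaction, DESeq2 called 133 of 12410 shared genes and the other runs at most 4. At an unadjusted p under 0.05, leaving out a library left 1 to 3 carriers in EpiLCs (10.2% to 13.7% of all genes). For the interaction it left 1 to 5 (1241 to 1851 of all 12410 shared genes). The reported fits gave 3 and 4. The medians over carriers in ESCs and in EpiLCs moved by less than their spread but took either sign, and that of the interaction was not recomputed. With a 1.5-fold threshold in place of 2-fold, 16 carriers differed between the cell types (6 higher and 10 lower in EpiLCs), 42.1% of the carriers against 41.7% of all shared genes, and leaving out a library gave 6 to 11 at 2-fold (15.8% to 28.9%, against 21.2% to 22.8% of all shared genes). Of 18 named carriers in each cell type, 13 in ESCs and 15 in EpiLCs kept the sign of their log2 fold change with Δ9-THC throughout. In ESCs the log2 fold change of Slc25a46 was -0.00181 with the GC and length offsets and -0.00209 with both, of Slc25a3 -0.0331 and -0.0333, and of Slc25a5 -0.034 and -0.0341. Slc25a4 was at -0.00154 with RLE factors and -0.00156 by DESeq2. In the fit of 12 libraries Slc25a4 was at -0.0154 and Slc25a5 at -0.0116. Leaving out a library gave -0.0316 to 0.035 for Slc25a4, -0.0154 to 0.0373 for Slc25a5 and -0.0378 to 0.0519 for Slc25a31. In EpiLCs, with the offsets and with both, Slc25a12 was at -0.0433 and -0.0431 and Slc25a39 at 0.0144 and 0.0145, and leaving out a library gave -0.0923 to 0.0809 for Slc25a10, -0.346 to -0.12 for Slc25a5, 0.09 to 0.36 for Slc25a31 and 0.00348 to 0.188 for Slc25a13. At these depths counting error limits carriers near 1 CPM, such as Slc25a29, Slc25a45 and Slc25a47.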

Other observations

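Paralogous carriers were set against each other within each library, as ratios of their levels per kilobase of exon, as a description with no test. The ADP/ATP carrier Slc25a5 exceeded Slc25a4 by 6.15 ± 0.157 times (SD, n = 3) in vehicle ESCs and 6.85 ± 1.16 times in vehicle EpiLCs. The aspartate-glutamate carrier Slc25a13 exceeded Slc25a12 by a mean of 8.09 times in vehicle ESCs, 8.79 in exposed ESCs, 8.11 (7.14 to 8.67) in vehicle EpiLCs and 8.42 (7.77 to 9.40) in exposed EpiLCs. In the batch-adjusted ESC counts the SD of this ratio was 0.0832% of its mean with the vehicle and 0.0684% with Δ9-THC, where counting error alone would give 3.01% and 3.25%, so it does not measure replicate spread and the ESC means are not compared. The balance of the pyrimidine nucleotide carriers Slc25a36 and Slc25a33 differed between cell types, with a ratio of 2.21 to 3.08 in vehicle ESCs and 0.826 to 1.02 in vehicle EpiLCs, and no overlap. The ratio of the glutathione carriers Slc25a39 and Slc25a40 was 46.9 to 65.1 in vehicle ESCs and 18.0 to 20.2 in vehicle EpiLCs. In exposed libraries it was 33.8 to 46.4 in ESCs and 13.9 to 15.5 in EpiLCs, below the vehicle range in each cell type, in ESCs by a margin of 46.4 against 46.9. The GC content of these carriers is 59.7% and 39.4%, and the part of GC content in the ratio was not tested.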
